A study of Drosophila sechellia with 6 samples.

Results

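Some genes of *Drosophila sechellia* were listed at exactly 0 in flies on a single diet and above 0 in flies on the other. A gene was taken when the authors' software had tested it, its name was GM followed by digits, and exactly 1 of its values, in control or in noni, was 0. From these, 8 early zygotic genes were left out: *Neu2* (GM22138), GM14935 and GM14975 (both listed as orthologs of *term* and CG7271), *Bro* (GM14432), CG8960 (GM14468), CG13713 (GM14677), CG6885 (GM14989) and CG15876 (GM13954). This left 42 genes of the 17273 genes of the table, 30 at 0 in noni and 12 at 0 in control. The members were chosen by the FPKM values of the diet comparison itself, so those values are given as a description and no test was run on them.

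RNA was sequenced from whole adult females of strain 14021-0428.25, reared on cornmeal medium at 20 °C and 0 to 3 days old. For 24 h the control group ate instant *Drosophila* food, and the noni group ate the same food with 1 g of rotten pulp of noni, the fruit of *Morinda citrifolia*. There were 3 libraries per diet, each of RNA pooled from 10 flies and selected for poly(A). The table gives FPKM (fragments per kilobase of transcript, scaled to the number of mapped fragments) as a single value per gene and diet, pooled by the authors over the libraries, so values of single libraries were not at hand and no SD can be given. The depth of the libraries is not in the table and was not used here. No difference below can therefore be set against the spread between libraries. FPKM can miss the few fragments of a short or rare transcript, so a gene is said only to be listed at 0. In whole flies, fewer cells of a type and less RNA per cell cannot be told apart.

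Many of the names found here belong, in *D. melanogaster*, to the earliest genes that an embryo transcribes from its own genome. A fly embryo first divides its nuclei in a common cytoplasm with RNA laid down by the mother. Its own genes then switch on in waves, beginning with short genes, often without introns, that act while the nuclei divide and while cell membranes form around them. These transcripts are brief, and adult tissues are not known as a main source of them. Whole females were sequenced, with any eggs inside their bodies, and the source of these transcripts was not tested.

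The labelled tissue was checked against its markers. Yolk proteins, with which females provision their eggs, gave some of the highest values: *Yp1* (GM11404) reached 13415 FPKM on control food against 23781 FPKM on noni, and *Yp2* 11056 FPKM against 18179 FPKM. Of a list of male reproductive genes, 10 were found in the table, and their highest value was 0.811 FPKM in control and 0.679 FPKM in noni. None of the 9 genes found for larval or late embryo cuticle exceeded 0.332 FPKM in either diet.

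Of the 10902 tested genes with a GM name, 38 were listed at 0 in noni and above 0 in control, which is 0.349%, and these are the 30 genes described here with the 8 left out. In the other direction there were 12, which is 0.11%. These shares are the rule itself applied to the table and carry no further meaning. Among all 11310 genes tested the shares were 0.495% and 0.203%, because 29 genes with other names, such as RNA genes, were also listed at 0 in a single diet. No gene tested was at 0 in both diets.

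The 30 genes at 0 in noni had control values from 2.36 to 118 FPKM, with a median of 9.75 FPKM. Of these, 14 were at 10 FPKM or more and 8 were under 5 FPKM. The median of all genes tested was 29.1 FPKM in control. An ortholog name was found for 14 of the 30 genes, through the study's tables of genes that responded in this or related experiments, so the number of names carries no weight.

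The best-known names among them have roles in the early embryo of *D. melanogaster*. *Z600* (GM25530), also called *frühstart*, encodes a small protein that holds back mitosis as the embryo begins to gastrulate. Its locus is 273 nt long on scaffold 0, from 7611596 to 7611868 of the build dsec_caf1. It was at 89.7 FPKM in control, against 0 FPKM in noni, the second highest control value of the 30. *SNCF* (GM25414), named as a co-factor of the transcription factor SoxNeuro, was at 30.6 FPKM in control, against 0 FPKM in noni. It lies on the same scaffold from 5546410 to 5546850, a locus of 441 nt. *halo* (GM16605), which directs the movement of lipid droplets along microtubules in the early embryo, was at 25.0 FPKM in control, against 0 FPKM in noni. Its locus of 330 nt is on scaffold 14 from 1464734 to 1465063.

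*Elba3* (GM18486) encodes a subunit of a complex that acts at chromatin boundaries in the early embryo. It was at 9.64 FPKM in control, against 0 FPKM in noni, on scaffold 5 from 2765110 to 2766249. *Elba2* (GM11124), a partner in that complex, did not share this pattern and was listed at 42.1 FPKM in control, against 46.7 FPKM in noni. So of the subunits measured, *Elba3* was at 0 in noni while *Elba2* was slightly higher there than in control.

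A further 6 genes carry the CG names of *D. melanogaster* genes that were on the list of early zygotic genes. CG14915 (GM18840) was listed at 40.6 FPKM in control, CG14317 (GM15274) at 27.1 FPKM and CG15382 (GM23740) at 23.6 FPKM, and each was at 0 FPKM in noni. CG14427 (GM17502) at 6.12 FPKM, CG14014 (GM18013) at 4.65 FPKM and CG16815 (GM10290) at 2.72 FPKM in control were likewise at 0 FPKM in noni. Their control values thus ran from 2.72 to 40.6 FPKM, and 3 genes of the group, GM18669, *Z600* and GM18851, were higher. CG14317 lies on scaffold 12 from 257890 to 259233 and, with 1344 nt, has the longest locus among genes with a named ortholog.

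The list of early zygotic genes held 46 names, of which 31 (67.4%) were found in the table, too few for a median. The names led to 31 genes, of which 27 were tested. Of the tested genes 18 were at 0 in noni, namely the 10 described above and the 8 left out by the rule. These are the same zeros that the rule used, and the names came mostly from tables of genes that responded, so this share is no independent evidence. The 8 left out were listed between 2.30 and 14.7 FPKM in control. Of the other 9 tested genes of the list, 7 were lower in noni and 2 were higher, a count with the same limit of names. *Sry-alpha*, needed for cell formation in the blastoderm, was listed at 20.7 FPKM in control, against 1.30 FPKM in noni. *twi* (GM15978), which specifies the mesoderm, was at 3.05 and 0.381 FPKM, and *sisA* (GM11249), which counts X chromosomes in sex determination, was at 5.62 and 0.761 FPKM. Less lowered were *slam* (GM18624) at 30.8 and 21.0 FPKM, *kni* at 5.41 and 2.94 FPKM and *zen* (GM10527) at 2.89 and 1.82 FPKM. *hb*, a segmentation gene that mothers also deposit in eggs as RNA, was higher, at 23.1 FPKM in control, against 32.7 FPKM in noni. In all tested genes, 3.12% had a log2 change of -1 or lower and 1.49% of 1 or higher, with 1 FPKM added to both values. Of 19 names of maternal, germline and egg genes 7 were found, again too few for a median, of which 6 were higher in noni and 1 was lower, with *bcd* at 13.6 FPKM in control, against 20.5 FPKM in noni. Among all genes tested 55.3% were higher and 44.7% lower in noni, and the difference between the lists was not tested. Whether the amount of embryonic RNA differed between the flies of the diets was not tested.

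**Figure D1:**
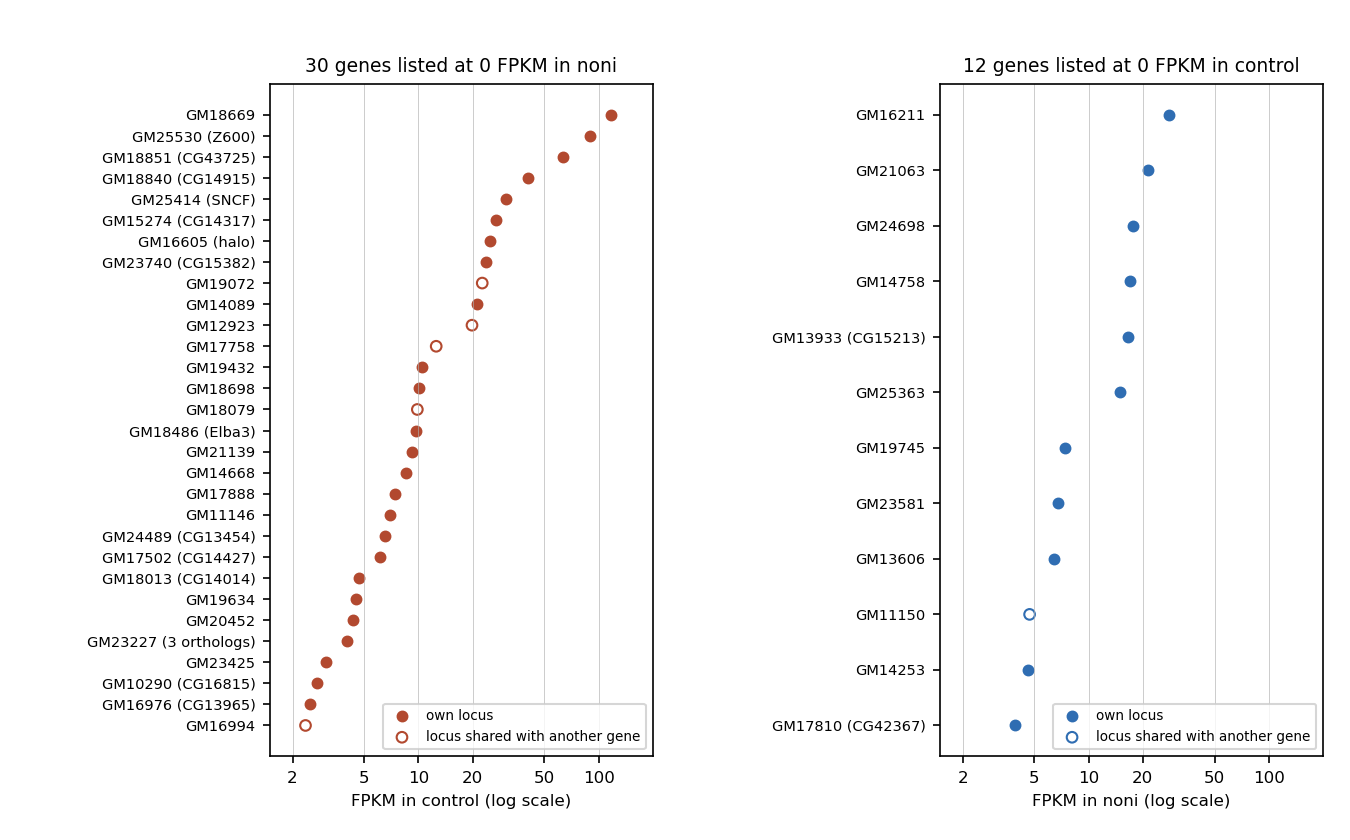
FPKM of each gene in the diet where it is above 0 (horizontal log axis), for the 30 genes listed at 0 FPKM in noni (left) and the 12 genes listed at 0 FPKM in control (right). Each point is the authors' value pooled over 3 libraries, without an error. Open circles mark genes whose locus is shared with another gene. The control values of the left group reach 118 FPKM (GM18669), while the noni values of the right group end at 27.9 FPKM (GM16211).

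A named ortholog without a place on that list was found for 4 more of the 30 genes. CG43725 (GM18851), with a locus of 195 nt, was at 63.1 FPKM in control, against 0 FPKM in noni. CG13454 (GM24489) was at 6.48 FPKM and CG13965 (GM16976) at 2.50 FPKM in control, and both were at 0 FPKM in noni. GM23227 was listed at 4.03 FPKM in control, against 0 FPKM in noni, and is paired with 3 *D. melanogaster* names, CG3176, CG13373 and CG32817. Whether *D. sechellia* has similar copies that share its reads was not examined, so its value is uncertain.

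The highest control value belonged to a gene without a named ortholog. GM18669, on scaffold 5 from 5053883 to 5054184, was at 118 FPKM in control, against 0 FPKM in noni. The gene before it, GM17909, is 947 nt away and was listed at 96.6 FPKM in control, against 78.4 FPKM in noni. The gene after it, GM17908, is 233 nt away and was at 0 FPKM in both diets. A zero in noni was therefore found next to a gene of similar control level whose value stayed well above 0.

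GM14089 has a locus of 13527 nt of its own on scaffold 3, from 2126531 to 2140057. It was at 21.1 FPKM in control, against 0 FPKM in noni, and no ortholog name was found for it. Its neighbour GM14100, 481 nt before it, was at 3.51 FPKM in control, against 2.76 FPKM in noni.

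Most of the other unnamed genes were short and low. GM18698, GM19432, GM21139, GM14668, GM19634 and GM17888 have loci of 180 to 289 nt. Their control values were 10.01, 10.5, 9.25, 8.53, 4.51 and 7.44 FPKM in that order, against 0 FPKM in noni. GM20452, with 344 nt, was at 4.34 FPKM in control. GM11146 and GM23425 lie on scaffolds that carry only 1 and 2 genes of the table, and were listed at 6.94 and 3.08 FPKM in control. All 9 genes lay between 3.08 and 10.5 FPKM, with GM18698 and GM19432 above the median of the group and the others below it.

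The other 5 genes at 0 in noni share their locus with another gene, where the software may have had to divide reads. For GM12923 (19.8 FPKM in control) the other gene, GM12101, was itself lower in noni, at 44.4 FPKM in control, against 21.8 FPKM in noni. For GM17758 (12.5 FPKM) and GM16994 (2.36 FPKM in control) the partners hardly differed between the diets: GM17793 was at 15.7 and 15.6 FPKM, and GM17375 at 6.68 and 7.93 FPKM. For GM19072 (22.6 FPKM) and GM18079 (9.86 FPKM in control) the partners were near 0 in both diets, with GM11066 at 0.462 and 0.104 FPKM and GM18485 at 0.0518 and 0.0230 FPKM. A zero of this kind thus stood beside partners that fell, that stayed level and that were hardly present. Of the tested genes with a GM name, 7.07% share their locus with another gene. Whether reads were divided between the genes of a shared locus was not examined, so the values of these 5 genes are uncertain.

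The rule did not name locus length, but it took only genes that Cuffdiff had tested, which is a filter for low values. Whether length enters through that filter was not examined, so the lengths are a description and no independent trait. The 30 genes had a median locus length of 387 nt, against 1644.5 nt for all tested genes with a GM name. Of the 30 genes, 19 (63.3%) had a locus under 500 nt, against 13.2% of all tested genes with a GM name. For 21 genes (70%) the length was a multiple of 3, against 45.2% of all tested genes with a GM name, and these shares were not matched for length. A gene model of coding sequence without an intron or untranslated part has such a length. The 21 genes also include GM14089, with its long locus, and GM19072, whose locus is shared. At the same FPKM a short gene rests on fewer fragments than a long one, and the part of length in the zeros was not tested.

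**Figure D2:**
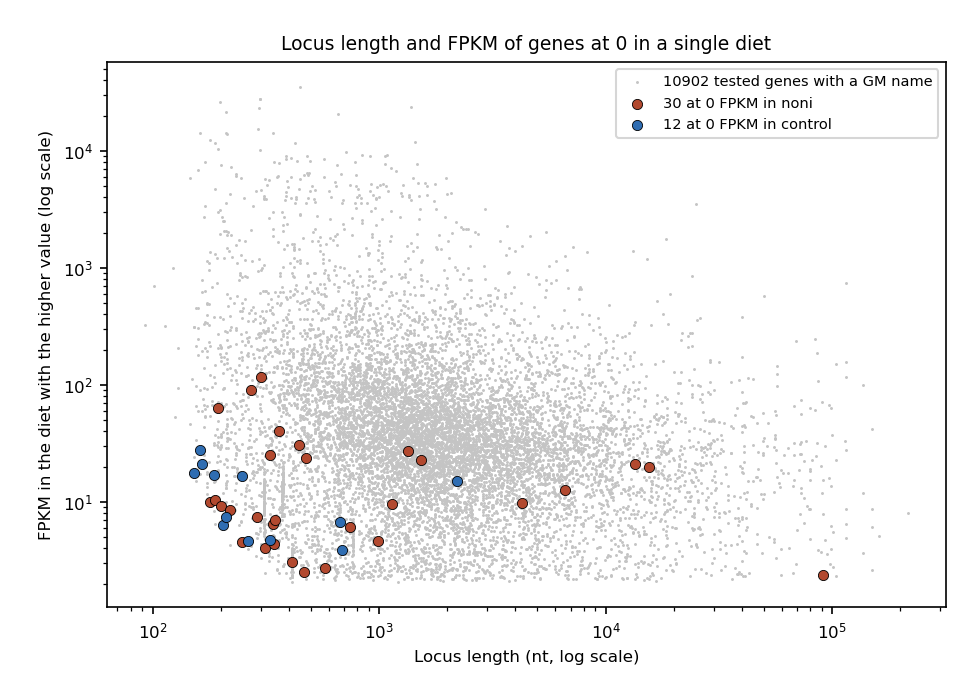
Locus length (horizontal, nt, log scale) and FPKM in the diet with the higher value (vertical, log scale) for the 10902 tested genes with a GM name. The 30 genes at 0 FPKM in noni and the 12 at 0 FPKM in control are drawn over the others. Most of both groups lie at short lengths, with medians of 387 and 229.5 nt. Their median FPKM was 9.75 and 11.2, and *Z600* (GM25530) and GM18669 were highest at 89.7 and 118 FPKM.

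Multiplying the FPKM by the locus length in kilobases gives a value that follows the number of fragments rather than their density, here called the length-scaled value. It is too high where the locus holds introns, so single values and the counts given here were read only for loci under 3000 nt that are not shared. How closely it follows the fragments at the shortest loci was not examined, so short and longer loci may not be comparable. Of 24 such genes at 0 in noni, 9 had a length-scaled value above 5 in control and 13 one under 3. The 9 genes were CG14317 at 36.4, GM18669 at 35.5, *Z600* at 24.5, CG14915 at 14.7, *SNCF* at 13.5, CG43725 at 12.3, CG15382 at 11.2, *Elba3* at 11.0 and *halo* at 8.25. The lowest length-scaled value was that of GM19634, 1.12.

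Some of these genes lie close together. *Z600* and CG13454 on scaffold 0 are 7.46 kb apart with 3 genes between them, and CG14915 and CG43725 on scaffold 3 are 4.09 kb apart with none between. *Elba3* starts 492 nt after the locus of GM18079, with no gene between them. Both genes of each pair were chosen for their value of 0 in noni, so the shared zero follows from the rule. It is no evidence that neighbouring genes changed together. Whether the chosen genes lie closer together than other genes was not tested. GM18079 also shares its locus with another gene, so its value is uncertain. CG14427 has *nullo*, which acts in the formation of cell membranes in the blastoderm, as the next gene at 8156 nt. *nullo* was not tested and was at 0.947 FPKM in control, against 0 FPKM in noni.

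Where a nearest gene was itself at 0 in noni, as in the pairs of CG14915 with CG43725 and of GM18079 with *Elba3*, it was left out of the counts that follow. Among the nearest genes on either side, 34 were tested and belonged neither to the 30 nor to the 8 left out, and 17 of them were lower and 17 higher in noni. Their median log2 change, with 1 FPKM added, was -0.0028, and that of all genes tested was 0.043. Only GM23426, next to GM23425, reached a log2 change of -1, at 21.1 FPKM in control, against 6.24 FPKM in noni. GM21275, next to GM20452, was the only neighbour to reach 1, at 13.5 and 38.0 FPKM.

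**Figure D3:**
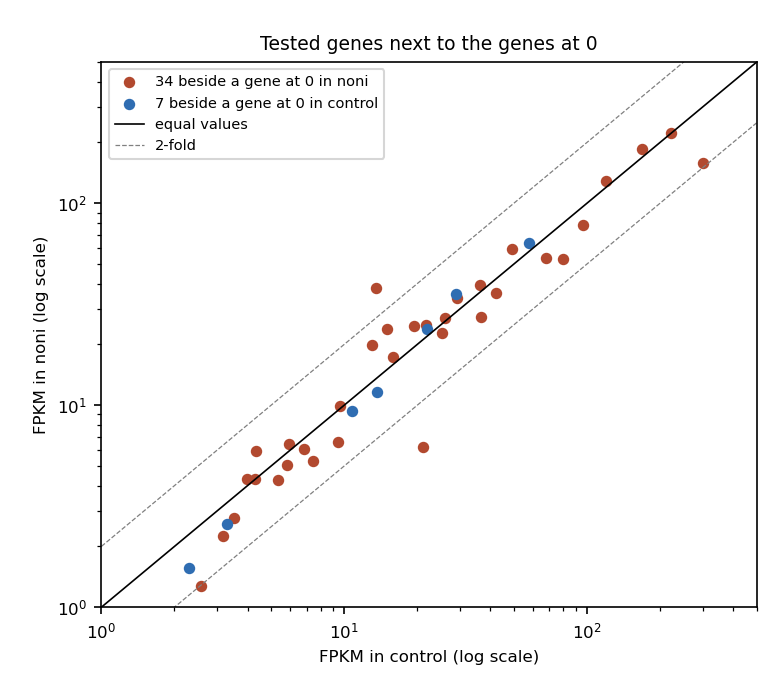
FPKM in control (horizontal) and in noni (vertical), both on log scales, of the nearest tested genes on either side of the genes at 0. Points are the authors' pooled values, the solid line marks equal values and the dashed lines mark 2-fold. Of the 34 neighbours of genes at 0 in noni 3 lie on or outside the dashed lines (GM23426, GM25415 and GM21275), and all 7 neighbours of genes at 0 in control lie between them.

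In the other direction, 12 genes were at 0 in control and above 0 in noni. Their noni values ran from 3.90 to 27.9 FPKM with a median of 11.2 FPKM, and 6 of them were at 10 FPKM or more. The median of all genes tested was 30.4 FPKM in noni. An ortholog name was found for only 2, so the other 10 could not be looked up on the gene lists. GM13933, the ortholog of CG15213, was listed at 0 FPKM in control, against 16.5 FPKM in noni, with a locus of 249 nt on scaffold 2 from 5078097 to 5078345. The gene before it, GM14692, is 918 nt away and was not tested. It was listed the other way, at 5.44 FPKM in control, against 0 FPKM in noni. GM17810, the ortholog of CG42367, had the lowest noni value, 3.90 FPKM, and a locus of 688 nt.

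The highest noni values of this group came from very short loci. GM16211 was listed at 27.9 FPKM with 162 nt, GM21063 at 21.2 FPKM with 165 nt, GM24698 at 17.7 FPKM with 153 nt and GM14758 at 17.1 FPKM with 186 nt. Their length-scaled values were 4.52, 3.51, 2.70 and 3.17 in that order, all under 5. At that length the same FPKM stands for fewer fragments than at a longer locus, but fragment counts were not used here. Whether the filter for low values admits such short loci only at a higher FPKM was not examined, so this order is a description.

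GM25363 stood apart from them. Its locus of 2198 nt on scaffold 0, from 4873084 to 4875281, is the longest of the 12, and it was listed at 0 FPKM in control, against 15.0 FPKM in noni, with a length-scaled value of 33.0. No ortholog name was found for it. The gene after it, GM25364, is 126 nt away and was at 3.28 FPKM in control, against 2.57 FPKM in noni. It was the only unshared locus of this group with a length-scaled value above 5.

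GM23581, with 670 nt, was listed at 6.76 FPKM in noni and GM14253, with 264 nt, at 4.59 FPKM. GM19745 at 7.39 FPKM, GM13606 at 6.40 FPKM, GM11150 at 4.71 FPKM and GM16211 lie on scaffolds with 1 or 2 genes of the table. GM11150 shares its locus with GM11151, which was at 0 FPKM in control, against 0.459 FPKM in noni. In all, 4 of the 12 genes and 3 of the 30 lie on scaffolds with fewer than 10 genes, where 7.18% of the tested genes with a GM name lie.

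The 12 genes had a median locus length of 229.5 nt, and 9 (75%) had a locus under 500 nt. For 8 of them the length was a multiple of 3. Their 7 tested neighbours, 4 lower and 3 higher in noni, had log2 changes from -0.36 to 0.28, and none of them reached a log2 change of 1 in either direction.

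The share of zeros varied with length in both directions. Below 200 nt, 128 genes with a GM name were tested, of which 2.34% were at 0 in noni and 3.12% at 0 in control. From 300 nt to under 400 nt the shares were 1.63% and 0.181%, of 551 genes. From 500 nt to under 1000 nt, 5 of 1972 genes (0.254%) were at 0 in noni and 2 (0.101%) at 0 in control. From 1000 nt to under 2000 nt, 6 of 2871 genes (0.209%) were at 0 in noni and 0 were at 0 in control. Of 4618 genes from 2000 nt on, 5 were at 0 in noni and 1, GM25363, at 0 in control. Of those at 0 in noni, only GM14089 has a locus of its own. For GM18079, GM17758, GM12923 and GM16994 the length is that of a locus shared with another gene. The shares were thus highest at the shortest loci in both directions, and both had zeros at longer loci too. These counts include the 8 early zygotic genes left out elsewhere, which make up 3 of the 6 zeros in noni from 1000 nt to under 2000 nt. Whether the directions differ beyond the spread between libraries was not tested.

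**Figure D4:**
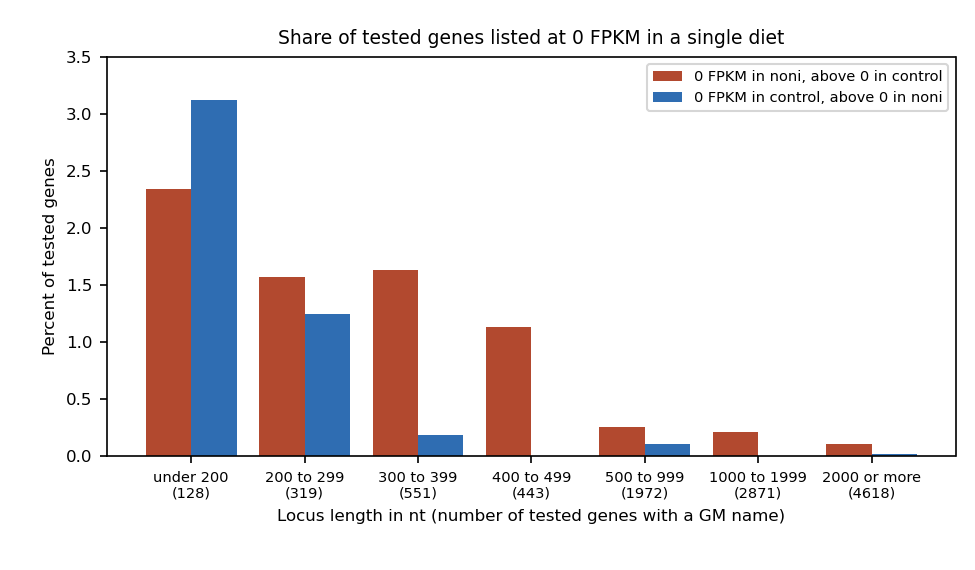
Percent of the tested genes with a GM name that were listed at 0 FPKM in noni (red) or at 0 FPKM in control (blue), by locus length in nt, with the number of genes tested under each bin. Below 200 nt the shares were 2.34% and 3.12%; from 2000 nt they were 0.108% and 0.0217%. The 8 early zygotic genes that were left out elsewhere are counted here. From 2000 nt on, every gene at 0 in noni except GM14089 shares its locus with another gene.

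By level, the share at 0 in noni fell from 1.01% of genes under 5 FPKM in their higher diet to 0.0471% of those at 100 FPKM or more, which is GM18669 alone. The share at 0 in control fell from 0.304% to 0.0627% of those from 20 to under 50 FPKM, and no gene was found above that. These levels are among the values that chose the genes, and the filter for low values acts on them too. Both falls are therefore a description and no independent result.

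Just inside the limit of 0 were GM16994 and CG13965, with the lowest control values of genes at 0 in noni. Just outside it were tested genes with the lowest noni values above 0: GM23868 (the ortholog of CG12420) at 2.62 FPKM in control, against 0.111 FPKM in noni, *Tom* (GM25490) at 4.43 and 0.182 FPKM, and *E(spl)m4-BFM* (GM10204) at 3.72 and 0.195 FPKM. *Tom* and *E(spl)m4-BFM* both belong to the Bearded family, small proteins that restrain Notch signalling. GM17851 at 2.28 and 0.227 FPKM and GM19768 at 2.30 and 0.273 FPKM followed. In the other direction these were GM24422, at 0.230 FPKM in control, against 2.91 FPKM in noni, GM12239 at 0.232 and 5.94 FPKM, GM16809 at 0.304 and 2.84 FPKM, GM18832 at 0.346 and 2.83 FPKM, and GM13690 at 0.351 and 2.54 FPKM.

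Zeros in a single diet were more frequent among the 5963 genes that were not tested, at 10.1% in noni and 7.09% in control, and at 10.7% and 7.62% of those with a GM name. The highest values there belonged to small RNA genes. In control, snoRNA:GM27569 was listed at 688 FPKM, snoRNA:GM27455 at 579 FPKM, snoRNA:GM27571 at 325 FPKM, mir-2a-1 at 268 FPKM and mir-281-2 at 101 FPKM, all at 0 FPKM in noni. In noni, mir-318 was listed at 413 FPKM, snoRNA:GM27542 at 170 FPKM, snoRNA:GM27493 at 129 FPKM, snoRNA:GM27456 at 128 FPKM and tRNA:GM27156 at 92.8 FPKM, all at 0 FPKM in control. A high FPKM with a zero in the other diet was thus also found among genes that the software did not test. Some of these loci were very short, such as mir-318 with 68 nt and mir-2a-1 with 76 nt. Others were long, such as snoRNA:GM27571 with 5055 nt. The libraries were selected for poly(A), and how well they captured small RNA was not examined, so these values are uncertain. The highest untested gene with a GM name was at 9.76 FPKM in control (GM26126) and at 10.4 FPKM in noni (GM21640).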

How the data were processed

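The FPKM values were deposited by the authors as a single table with 1 value per gene for control and 1 for noni, each pooled over 3 libraries. Read quality was checked by the authors in FastQC. Bowtie2 placed the reads on the *D. sechellia* build dsec_caf1, and Cuffdiff made the values from the Ensembl gene models, normalizing geometrically and correcting for bias and library size. Versions are not given in the sources used here. The table also holds the authors' own fold changes, test statistics, p-values and q-values, which were not used. Its status column says which genes Cuffdiff tested.

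Groups followed the diet in the sample labels. The members and gene lists were chosen with earlier results of these data known. Every member is named. Locus starts were taken to count from 0 and are given counted from 1; a locus is the region in which Cuffdiff placed the gene, and genes that overlap carry the same one. Names of *D. melanogaster* orthologs came from the study's supplementary tables, which pair 2101 genes with a name. Log2 changes, of neighbours and list genes only, had 1 FPKM added to both values. No sequence is shown, since none was used here, and a search of promoters for motifs was not made. Medians of gene lists were not calculated because fewer than 80% of the names of each list were found. The selection of members and neighbours was tested on simulated data. Python 3.11.15, numpy 2.4.6, pandas 2.3.3 and matplotlib 3.10.9 were used.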

Additional observations from a re-analysis of the deposited data

How the results depend on the processing

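The number of genes at 0 depended on the filter for low values. Without the filter there were 604 genes at 0 in noni and 422 at 0 in control, and with a mean of at least 1 FPKM in its place 73 and 45. A mean of at least 10 FPKM left 10 and 2. With every kind of gene name there were 48 and 23. Without loci under 300 nt, 22 genes at 0 in noni and 4 at 0 in control were left. When genes with a length-scaled value (FPKM times locus length in kilobases) under 3 were left out, an alternative chosen after seeing the data, 17 and 6 were left. That alternative was applied to every locus, shared or long. The 17 therefore include the 5 genes with a shared locus and GM14089, with a locus of 13527 nt. Their length-scaled values may be too high, so their place among the 17 is uncertain. GM16994, at 2.36 FPKM in control, reached 215.77 with a shared locus of 91384 nt. The other alternatives, which were zero taken as at most 0.1 FPKM or as at most 1% of the other diet, the 8 early zygotic genes kept, and shared loci or small scaffolds left out, kept both counts, and the medians where calculated, within 1.5 times. With 10 FPKM added instead of 1, the median log2 change of the neighbours of genes at 0 in control was -0.079 instead of -0.18. No paired analysis was possible because the table holds pooled values without replicate numbers, and for the same reason no library could be left out. Fragment counts of single genes were not used here, so no limit was set on what a value of 0 allows. The alternatives planned for list medians (added FPKM, filter) and for a promoter motif were not run, because too few list names were found and no promoter sequence was used here. Other amounts of added FPKM for the neighbours were also chosen after seeing the data.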
